A study of Mus musculus with 9 samples.

Results

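The cytosolic ribosome is built from a fixed set of proteins on a scaffold of ribosomal RNA, with a small subunit that reads the mRNA and a large subunit that joins the amino acids. Its protein genes are among the most active in growing cells, their mRNAs are short, and many begin with a run of pyrimidines through which translation is tuned by nutrient signalling. The same mRNAs have been copied back into the genome many times, which leaves processed pseudogenes that lack introns. The genes examined were all protein-coding genes whose symbol is Rpl or Rps followed by a number, together with Rpsa, Rplp0, Rplp1 and Rplp2, without pseudogenes, Rpl10l and the Rps6k kinases. This rule found 85 of the 48440 genes in the count tables: 43 of the large subunit, 31 of the small subunit, 3 of the P stalk, 6 paralogues expressed beside a partner gene, and 2 others. The 2 others were Rps19bp1, a binding protein of Rps19 and no ribosomal subunit, and Rps27rt, a retrogene of Rps27. All 85 passed the filter on low counts.

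RNA was selected by its poly(A) tail and sequenced from J1 mouse embryonic stem cells with the genotype Suz12-AID. In these cells Suz12, a core subunit of the Polycomb repressive complex PRC2, carries a degron through which auxin triggers destruction of the protein. All 3 groups carry this allele and were grown in serum with LIF and 2i inhibitors on gelatin. They are Mock, Auxin (50 µM for 96 h) and Reintroduction (4.5 h after washout of auxin), with 3 replicates each. The series text calls the replicates biological. The number of clones, what Mock cells received and how long Reintroduction cells had auxin are not stated separately, and no label names separate cultures. P-values therefore measure the spread between these samples, which may be technical.

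The libraries held between 44341283 and 113931419 counts, and both mates of a pair were counted. Suz12 mRNA lay between 122 and 173 CPM (counts scaled to a common library size, with TMM factors) in all 9 libraries, and since the degron acts on the protein this does not test depletion. All 10 pluripotency markers were expressed, with a summed level of 6186 to 6367 CPM in Mock, 7625 to 8182 CPM in Auxin and 5956 to 6024 CPM in Reintroduction. In Auxin against Mock 7 of them were called higher and 3, Pou5f1, Dppa5a and Utf1, lower. Of the 7 endoderm markers, 7 were called higher in Auxin than in Mock, at a summed level of 22.7 to 23.6 CPM against 6.0 to 7.47 CPM. Summed fibroblast markers, mostly Thy1 and with S100a4 at 0, were at 18.5 to 20.6 CPM in Mock, 40.4 to 47.5 CPM in Auxin and 38.0 to 39.4 CPM in Reintroduction. Trophoblast markers summed to 62.5 to 65.6 CPM in Mock, 107 to 118 CPM in Auxin and 110 to 115 CPM in Reintroduction, mostly Eomes and Tfap2c. In Auxin against Mock 3 of the 5 tested were called higher and 2 lower. Without TMM factors, Tfap2c had 25.1, 24.8 and 25.7 CPM in Mock and 93.0, 95.8 and 88.9 CPM in Auxin. Eomes had 32.5, 32.2 and 33.4 CPM in Mock, 27.3, 28.4 and 26.5 CPM in Auxin, and 67.1, 69.6 and 66.3 CPM in Reintroduction. Neural markers, mostly Tubb3, summed to 113 to 123, 81.5 to 97.9 and 80.5 to 83.2 CPM in the 3 groups. Mitochondrial genes held 4.58% to 4.80% of counts in Reintroduction and 3.79% to 4.0% in the 6 other libraries. Their part in the results below was not tested. Auxin replicate 2 stood apart from the other Auxin libraries, and the counts of members are given without it as well. Values also followed gene length differently in the Mock libraries than in the others, so changes are given with per-library trends of length and GC content removed too.

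Most reads of this gene family were counted outside the member genes. Coding sequences of the members matched 1337 other annotated genes at 80% identity or more, with a median identity of 92.3%, and 1322 of these copies are annotated as pseudogenes. Copies were found for 79 members. Rpl8, Rps3, Rpl39l, Rpl3l, Rps19bp1 and Rps27rt had none. To show what distinguishes a member from its copies, 40 bases of coding sequence around the first coding exon junction are printed for 5 members and for the copy with the most counts. The sequences are from the GENCODE transcripts, on the plus or minus strand as each gene runs, with positions in mm10. Capitals mark the 2 bases that meet at the junction in the member, and in the copy any base that differs from the member.
Rps12: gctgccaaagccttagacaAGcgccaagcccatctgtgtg
Rps12-ps3: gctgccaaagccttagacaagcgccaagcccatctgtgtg
Rpl38: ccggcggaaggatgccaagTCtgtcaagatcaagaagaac
Rpl38-ps2: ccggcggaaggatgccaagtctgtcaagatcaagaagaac
Rpl24: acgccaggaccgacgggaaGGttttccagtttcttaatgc
Gm12254: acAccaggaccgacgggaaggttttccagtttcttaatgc
Rpsa: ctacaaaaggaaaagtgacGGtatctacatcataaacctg
Rpsa-ps10: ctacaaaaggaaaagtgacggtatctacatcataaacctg
Rplp0: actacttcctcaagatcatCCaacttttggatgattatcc
Gm8730: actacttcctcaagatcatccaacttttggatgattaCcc

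In the genome an intron interrupts the Rps12 sequence on chromosome 10 (minus strand), where one exon ends at 23786764 and the next begins at 23786004. Its copy Rps12-ps3, annotated as protein coding, carries the same 40 bases unbroken on chromosome 19. The junction in Rplp0 lies on chromosome 5 between 115559888 and 115560741, and Gm8730 on chromosome 8 carries the stretch with 1 mismatch. Over the 82 members with such a junction, 221 of 283 windows (78.1%) were found unbroken and without mismatch in at least 1 copy. In 58 members this held for every window, and in 7 for none. A read across these junctions matches a copy in 1 piece and the member gene only if it is split across the intron.

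The copies took 83.4% to 84.6% of the counts of member and copies together in each library. The median over members was 89.6%, with 42 members above 90% and 13 below 50%. Rps27 is among the 13, as its retrogene Rps27rt is counted here as a member and not as a copy. Rpl24, a large-subunit protein, had 1941 counts over all 9 libraries on its own gene and 249379 on its copies. Rplp0, the base of the stalk that recruits elongation factors, had 428818 and 2456833. Rpl8, a large-subunit protein with no copy, had 975479 counts, and its level of 2221 CPM per kb of exon in Mock was the highest of all 85 member genes. The lowest were Rpl3l (0.558 CPM per kb) and Rpl24 (3.26 CPM per kb), and the median was 67.1 CPM per kb. With the copies added, the highest levels per kb of transcript in Mock were those of Rplp1 (4236 CPM per kb) and Rpl23a (3728 CPM per kb), and the median was 1778 CPM per kb. The genes named in this paragraph were chosen after their values were seen. Changes are reported for the member genes, and beside them for family sums, in which a member and its copies are added. Rps27rt is added to Rps27 there, which leaves 84 families.

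The 85 member genes held 1.82%, 1.69% and 1.67% of all gene counts in Mock replicates 1, 2 and 3. The Auxin replicates had 1.43%, 1.79% and 1.40%, the Reintroduction replicates 1.35%, 1.36% and 1.33%. Auxin replicate 2 lay among the Mock libraries, and the 3 Reintroduction libraries, which also had the most mitochondrial counts, were the lowest of the 9. With mitochondrial genes left out of the total, the mean share was 1.41% in Reintroduction, 1.60% in Auxin and 1.80% in Mock. Member and copies together took 11.3%, 10.3% and 10.3% of the counts of the Mock replicates. For Auxin these shares were 9.09%, 11.0% and 9.05%, for Reintroduction 8.39%, 8.23% and 8.43%. The log2 ratio of the mean share in Auxin to that in Mock was -0.16, which lies within the spread between libraries (exact two-sided permutation test, p = 0.3), and Auxin and Mock overlapped. Without Auxin replicate 2 the 2 groups did not overlap (exact p = 0.1, the smallest that 2 against 3 libraries allow). As it was the only Auxin library within the Mock range, leaving it out fixed this outcome, which is therefore no further evidence. Reintroduction lay below Auxin and below Mock in every library (exact p = 0.1 each, the smallest possible with 3 against 3, and 0.15 adjusted over the 3 comparisons), so this design cannot pass a threshold of 0.05. Fewer ribosomal-protein mRNAs per cell and more RNA from other genes cannot be told apart in such shares.

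**Figure D1:**
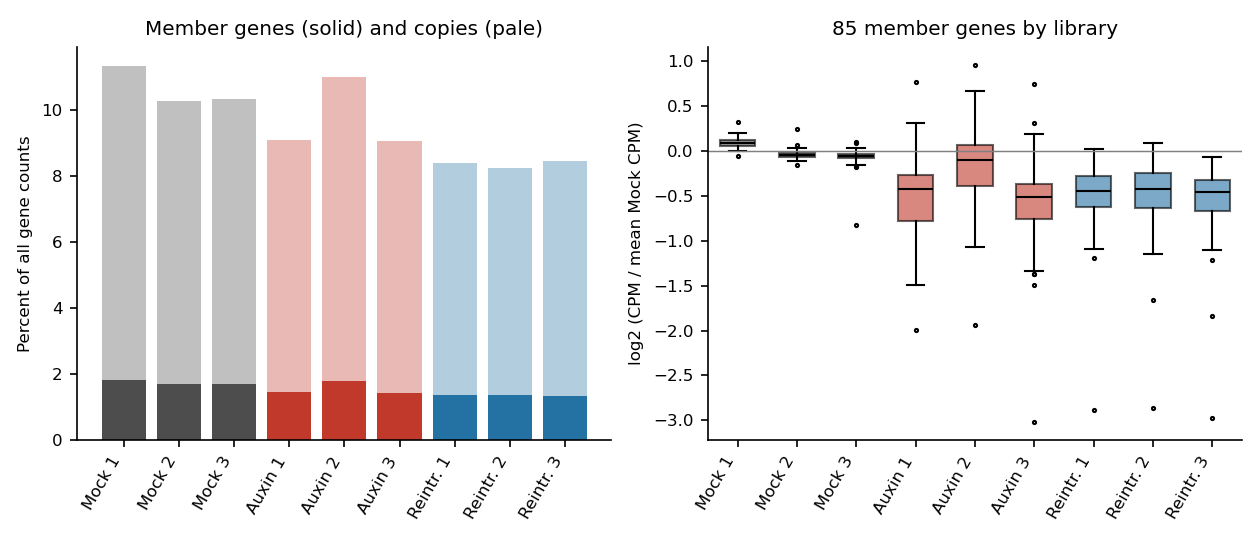
Left, percent of all gene counts (y axis) held by the member genes (solid) and their copies (pale) in each library. Right, log2 of each member's CPM over its Mock mean (y axis; box, quartiles with the median line; whiskers, 1.5 times the interquartile range). Auxin 2, at 1.79% and a median of -0.10, lies nearer to Mock than Auxin 1 and 3 do.

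Auxin against Mock asks what differs after 96 h of Suz12 degradation. Of the 85 member genes, 49 were called lower and 3 higher in Auxin (edgeR quasi-likelihood test, adjusted p under 0.05 over all genes), with a median log2 fold change of -0.34. Among all 20838 genes tested, 34.8% were called lower and 38.4% higher, and their median was 0.05. The 57.6% of members called lower thus exceed the background. In family sums 56 of 84 were lower and 2 higher (median -0.31), against 34.2% lower and 40.5% higher among all features. Without Auxin replicate 2, 81 member genes were called lower and 3 higher (median -0.48), and 78 families lower and 1 higher. The members of that library lay nearer to Mock than those of the other Auxin libraries. Leaving it out therefore moves the members lower in Auxin by construction. Calls gained in this way in comparisons with Auxin, here and below, are no further evidence. The shares of all genes called were not counted for fits without that library, here or below. Such counts therefore have no background beside them. The CPM values of the 2 groups did not overlap for 47 members, 44 lower and 3 higher in Auxin. The share of all genes without overlap was not counted, so this number has no background beside it.

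With length and GC trends removed, the same comparison gave 32 members lower and 24 higher, with a median of -0.03. The background was then 32.6% lower and 42.2% higher, with a median of 0.14. Family sums gave 34 lower and 31 higher. For family sums with the trends removed, here and below, the share over all features was not counted. Their trends were removed by the exon length and GC content of the member gene, although most counts lay on copies. Whether the length trend is technical was not tested. Other protein-coding genes with exons under 1000 bp had a median of -0.64 against -0.44 for the 26 members of that length. Between 2000 and 4000 bp the order was the opposite, with -0.17 for other genes and -0.36 for the 23 members.

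**Figure D2:**
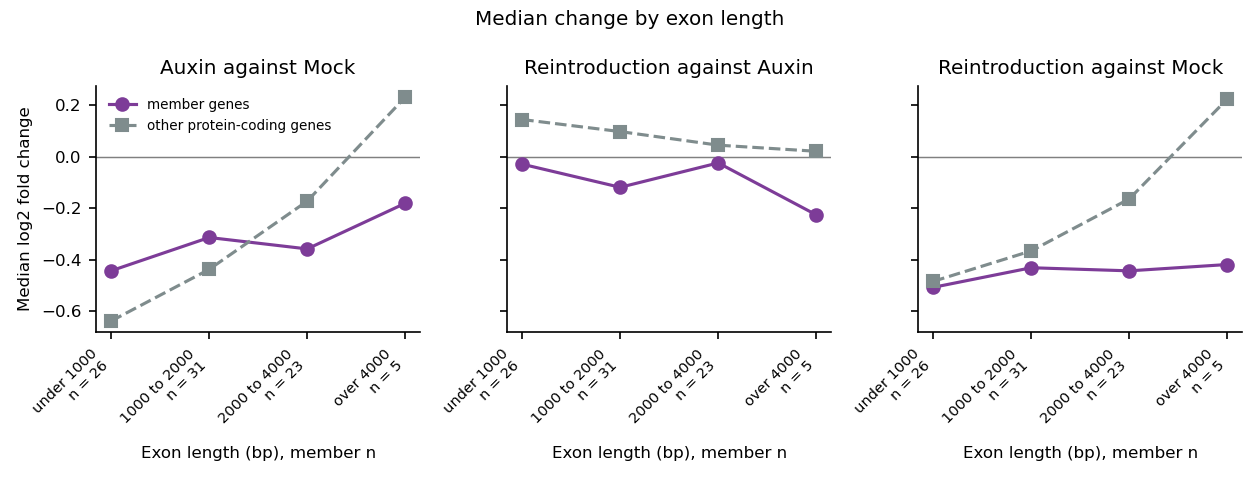
Median log2 fold change (y axis) of member genes (circles) and other expressed protein-coding genes (squares) in 4 classes of exon length (x axis, with the number of members), as counted. In Auxin against Mock the other genes go from -0.64 to 0.23 with length and the members from -0.44 to -0.18.

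By role, the large subunit had 28 of 43 genes lower and 2 higher (median -0.43), the small subunit 12 of 31 lower and 0 higher (median -0.21). These counts were, without Auxin replicate 2, 41 of 43 lower and 2 higher (median -0.53) and 30 of 31 lower and 0 higher (median -0.38). The trend-removed medians were -0.07 and 0.10 with that library and -0.15 and 0.00 without it. The difference between the subunits was not tested. All 3 stalk genes were called lower as counted. Rplp0 had 787, 709 and 681 CPM in Mock and 551, 687 and 522 CPM in Auxin, so that 1 Auxin library reached the Mock range (log2 fold change -0.31, SE 0.10, edgeR adjusted p = 0.013). Rplp1 fell by 0.47 and Rplp2, for which copies held 1.64% of the family's counts, by 0.52. With the trends removed Rplp0 stood at 0.00 and was not called, and Rplp1 was called higher at 0.21, so the direction of these 2 depends on the processing. Rplp2 stood at -0.28 and was still called lower.

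**Figure D3:**
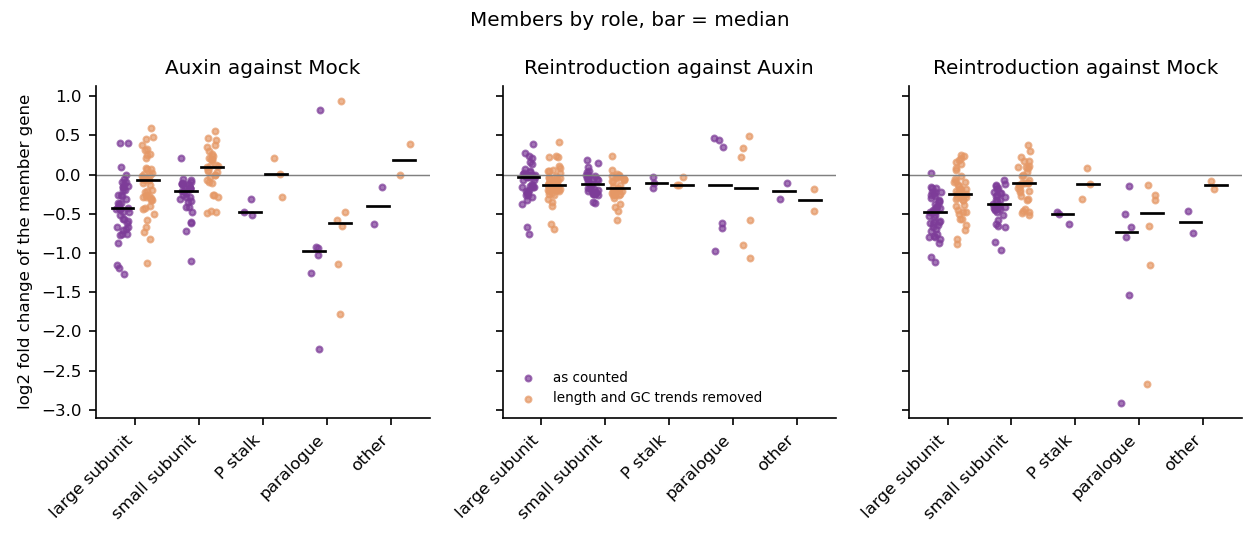
Log2 fold change (y axis) of each member gene by role (x axis), as counted and with length and GC trends removed, in the 3 comparisons. Bars are medians. In Auxin against Mock the large-subunit median is -0.43 as counted and -0.07 after removal.

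The largest falls were in Rpl39l, Rpl37a, Rpl7l1, Rpl27 and Rpl7, and all 5 were called lower with the trends removed as well. Rpl7, a large-subunit protein that contacts ribosomal RNA (chromosome 1, 16101295 to 16104662), had 640.2, 576 and 560.0 CPM in Mock and 248, 312 and 238 CPM in Auxin. All Auxin libraries lay below all Mock libraries (log2 fold change -1.15, SE 0.10, edgeR adjusted p = 7.9e-07), and with the trends removed the value was -1.12. Its family sum fell by 1.18 and its copies alone by 1.23. Rpl27 fell by 1.19 on its own gene and by 0.86 as a family. Rpl37a, a short large-subunit gene of 584 bp of exon, had 47.7, 43.0 and 43.8 CPM in Mock and 15.9, 24.0 and 16 CPM in Auxin (log2 fold change -1.27, SE 0.14). Trend removal left a fall by 0.58, still called.

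Rpl11 and Rpl5 sit together in the large subunit and, when unassembled, bind Mdm2 and stabilise p53. Rpl11 had 39.8, 36.4 and 35.8 CPM in Mock and 18.8, 24.0 and 18.2 CPM in Auxin (log2 fold change -0.88, SE 0.09, edgeR adjusted p = 6.6e-06). Rpl5 had 176, 171 and 165 CPM in Mock and 142, 177 and 128 CPM in Auxin. Its change of -0.19 did not pass the test, its groups overlapped through Auxin replicate 2, and without that library it was -0.34 and passed. Rpl8, named after its values were seen because no copy takes its reads, had 2047, 1814 and 1882 CPM in Mock and 1058, 1286 and 1057 CPM in Auxin, and fell by 0.76 (SE 0.08). With the trends removed its change was -0.11 and still called.

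Of the small-subunit genes named by rule, Rps6, the protein phosphorylated downstream of mTOR, had 269, 255 and 241 CPM in Mock and 175, 209.7 and 168 CPM in Auxin. The groups did not overlap (log2 fold change -0.47, SE 0.08, edgeR adjusted p = 2.8e-04), but with the trends removed the value was -0.07 and not called. Rps4x, an X-linked small-subunit gene, fell by 0.35. Rpsa, also known as the laminin receptor precursor, stood at -0.20, Rps3, at the mRNA entry, at -0.21, and Rps27a, made as a fusion with ubiquitin, at -0.12, none of them called. Without Auxin replicate 2 these 3 values were -0.34, -0.35 and -0.26, all called. Rpl10, added late in large-subunit assembly, stood at -0.16 and was called at -0.28 without that library. As that library lay near Mock, these calls without it are no further evidence.

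The 3 member genes called higher in Auxin were Rpl22l1, Rpl12 and Rpl23. Rpl12, at the base of the stalk, had 88.3, 78.9 and 79.3 CPM in Mock and 102, 122 and 102 CPM in Auxin (log2 fold change 0.40, SE 0.08, edgeR adjusted p = 6.1e-04). Rpl23, a large-subunit protein that also binds Mdm2, had 107, 99.3 and 102 CPM in Mock and 127, 163 and 117 CPM in Auxin (log2 fold change 0.40, SE 0.10). Neither overlapped between groups, and their family sums were called higher as well, at 0.27 and 0.31.

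A member and the sum of its copies are counted from separate genes of the annotation. Over the 79 members with copies, the log2 fold change of the member and that of its copies had the same sign in 74 in Auxin against Mock, in 66 in Reintroduction against Auxin and in 78 in Reintroduction against Mock. Both were called lower in 39, 5 and 57 of them, respectively, and in none was 1 called higher and the other lower. Pearson's r was 0.75, 0.74 and 0.50 (n = 79 families each, given as a description, since all points share the same libraries). Most values were negative in both readouts, in Auxin against Mock 80 of the 85 members and 71 of the 79 sums of copies. A common shift alone would therefore give many equal signs. In 5 families gene and copies were over 0.5 apart in Auxin against Mock. In 1 of them, that of Rps27, a zinc-binding small-subunit protein, the gene fell by 0.32. Its copies, with 964 counts against 10919 on the gene, stood at 0.59 (SE 0.31) and were not called. These copies leave out the retrogene Rps27rt, a member by the rule, which had 333851 counts. Rps27rt stood at -0.15, was not called, and so did not share the direction of the few other copies. The other families over 0.5 apart were Rpl22 and Rpl22l1, described next, Rplp2, whose few copies stood at 0.18 against -0.52 for the gene and were not called, and Rps29, whose copies stood at -0.53 against -1.10. How many of the copies' reads came from RNA of the member genes was not tested.

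**Figure D4:**
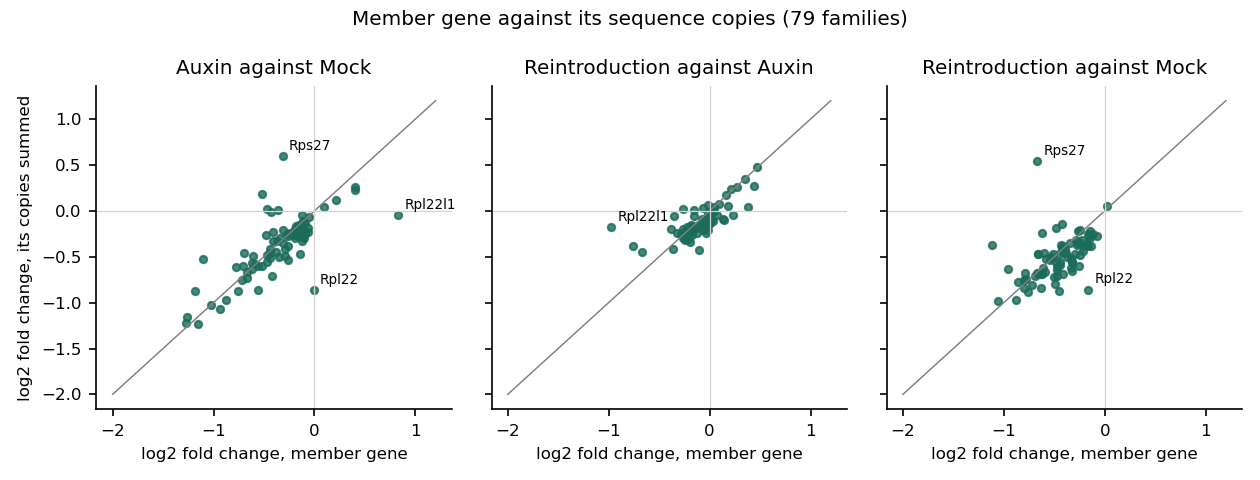
Log2 fold change of each member gene (x axis) against that of its copies summed (y axis) in the 3 comparisons, 79 families each. The line marks equal values. Most families lie near it, while 5 families, among them the labelled Rpl22, Rpl22l1 and Rps27, are over 0.5 apart in Auxin against Mock. The copies of Rps27 do not include Rps27rt.

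The readouts differed for Rpl22 and its paralogue Rpl22l1, which can replace it in the large subunit. Rpl22 itself had 203, 197 and 189.6 CPM in Mock and 186, 227 and 174 CPM in Auxin, overlapping groups with a change of -0.01, whereas its 4 copies together fell by 0.87 and the family sum by 0.58. Rpl22l1 had 24.5, 21.5 and 21.9 CPM in Mock, 38.6, 44.1 and 38.0 CPM in Auxin, and 20.6, 22.0 and 18.8 CPM in Reintroduction. Every Auxin library lay above every other library. It rose by 0.83 (SE 0.08, edgeR adjusted p = 3.2e-06) in Auxin against Mock and fell by 0.98 (SE 0.08, adjusted p = 3.1e-06) in Reintroduction against Auxin. These values were 0.94 and -1.07 once the trends were removed. Its copies, which held 83.3% of the family's counts, stood at -0.05 in Auxin against Mock, and its family sum at 0.14, neither called. Its exons overlap those of another gene in the annotation, and strand was not used in counting. Such an overlap exists for 33 of the 85 members, among them also Rpl5, Rpl10, Rpl12, Rpl13a, Rplp2, Rps3 and Rps20.

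Reintroduction against Auxin asks what moved in the 4.5 h after washout. As counted, 12 members passed as lower and 5 as higher (median -0.07), while 25.5% of all genes were lower and 25.5% higher. The share of members called, at 14.1% lower, was below the background. Scaling by total counts alone gave 29 lower and 4 higher. Family sums gave 31 lower and 4 higher (median -0.16), against 28.8% and 23.8% of all features. With the trends removed, 36 member genes were lower and 7 higher, against 30.2% and 24.9% of all genes. Without Auxin replicate 2, 12 member genes were lower and 17 higher and the median was 0.04, and in family sums 16 were lower and 13 higher. With the trends removed as well, 29 member genes were lower and 14 higher.

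The 5 member genes called higher after washout were Rpl7l1, Rps27l, Rpl27, Rpl36al and Rpl7, all of which had fallen in Auxin. Rpl7l1, a relative of Rpl7 found in precursors of the large subunit (chromosome 17, 46773907 to 46782656), had 289, 265 and 263 CPM in Mock, 106, 130.2 and 105 CPM in Auxin, and 157, 158 and 158 CPM in Reintroduction. The 3 groups did not overlap. It fell by 1.26 (SE 0.08, edgeR adjusted p = 8.4e-08) and then rose by 0.47 (SE 0.08, adjusted p = 5.3e-04), and against Mock it remained lower, at -0.79. Rps27l, a small-subunit paralogue known as a p53 target, had 67.7, 63.7 and 66.0 CPM in Mock, 31.0, 43.2 and 28.9 CPM in Auxin, and 44.7, 50.2 and 45.1 CPM in Reintroduction. It rose by 0.44 (SE 0.12) after washout, a call lost with the trends removed (0.22). Rpl27 rose by 0.38, Rpl36al by 0.35 and Rpl7 by 0.27. The family sum of Rpl27 stood at 0.03 and was not called.

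Beside Rpl22l1, the largest falls after washout were in Rpl13a, Rpl12, Rpl23 and Rps20. Rpl13a, a large-subunit protein, had 148, 136 and 130.5 CPM in Mock, 101, 126 and 95.2 CPM in Auxin, and 65.0, 62.1 and 64.1 CPM in Reintroduction. Its groups did not overlap, and it fell by 0.76 (SE 0.09, edgeR adjusted p = 5.8e-05) after washout. Its family sum fell by 0.44, and in Auxin against Mock that sum stood at 0.02 while the gene itself fell by 0.36. Rpl12 fell by 0.67, Rpl23 by 0.38 and Rps20, a small-subunit protein, by 0.36. Rpl12 and Rpl23 were thus higher in Auxin than in both other groups.

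Reintroduction against Mock asks what still differed. Of the 85 member genes, 68 were called lower and 0 higher (edgeR; 0 higher with DESeq2 and 0 at an unadjusted p under 0.05; median -0.45), while 33.4% of all genes were lower and 34.7% higher. In family sums 79 of 84 were lower and 0 higher (median -0.51), against 34.3% lower and 34.7% higher among all features. For 79 member genes and 83 families the 2 groups did not overlap, all lower in Reintroduction. Here too the share over all genes was not counted. With the trends removed, 50 member genes were lower and 8 higher (median -0.19), against 31.7% and 34.9% of all genes. Family sums then gave 52 lower and 12 higher, with no share over all features counted. By role, 34 of 43 large-subunit, 24 of 31 small-subunit and 3 of 3 stalk genes were lower as counted. Auxin libraries enter this comparison through the shared estimate of the spread, the gene filter and the trends. Leaving out Auxin replicate 2, 83 member genes were lower and 0 higher as counted, and 55 lower and 15 higher with the trends removed.

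The largest falls were in Rpl39l, Rpl13a, Rpl37a, Rps29 and Rpl7. Rpl39l, a paralogue of Rpl39 known from male germ cells, had 3.37, 3.13 and 2.71 CPM in Mock, 0.768, 0.80 and 0.38 CPM in Auxin, and 0.414, 0.423 and 0.392 CPM in Reintroduction. All Mock libraries lay above all others. It fell by 2.91 (SE 0.24, edgeR adjusted p = 1.2e-06) in Reintroduction against Mock and by 2.23 (SE 0.22) in Auxin against Mock. It has no copy, and with the trends removed the values were -2.67 and -1.77. Rpl13a stood at -1.11, Rpl37a at -1.05, Rps29, a small-subunit protein, at -0.96 and Rpl7 at -0.88, all called lower. Of the genes named in every comparison, Rps6 stood at -0.48, Rplp0 at -0.48, Rpl11 at -0.72, Rps3 at -0.43, Rpsa at -0.38, Rpl10 at -0.30 and Rps27a at -0.24, all called lower, Rps27a at an edgeR adjusted p of 0.05 as rounded. Rpl5, at -0.22, was not called.

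The 6 paralogues had 5 genes lower and 1 higher in Auxin than in Mock. Rpl36al, an intronless relative of Rpl36a, had 231, 200.2 and 204 CPM in the Mock replicates and 97.0, 118 and 96.9 CPM with auxin, and fell by 1.03 (SE 0.08, edgeR adjusted p = 5.7e-07). Its partner Rpl36a fell by 0.71, and Rps27l by 0.94 where Rps27 fell by 0.32.

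Ratios of a paralogue to its partner within a library do not depend on the scaling of that library. The log2 ratio of Rpl22l1 to Rpl22 was -3.05, -3.20 and -3.11 in the Mock libraries. Auxin had -2.27, -2.37 and -2.20, and Reintroduction -3.06, -3.05 and -3.20. The difference of Auxin from Mock was 0.84, and Reintroduction overlapped Mock (difference 0.02, exact permutation p = 0.7). In family sums the difference was 0.72, and Reintroduction kept a difference of 0.45 from Mock. The ratio of Rps27l to Rps27 differed by -0.64 between Auxin and Mock and by 0.80 between Reintroduction and Auxin. The ratio of Rpl39l to Rpl39 fell short of Mock in all libraries of the other groups, with differences of -2.22 in Auxin and -2.69 in Reintroduction. Rpl36al to Rpl36a differed by -0.31 between Auxin and Mock, and by -0.43 in family sums. Rpl7l1 to Rpl7 differed by -0.10 in gene rows, but in family sums by -0.01 with overlapping groups (exact permutation p = 1). For Rpl3l, a paralogue known from striated muscle with as few as 13 counts in a library, Auxin overlapped both other groups, while Reintroduction lay below Mock (difference -1.14) in gene rows and overlapped it in family sums. Each of the non-overlapping differences named here had p = 0.1 in the exact permutation test, the smallest possible, and p = 0.18 for gene rows or 0.138 for family sums after adjustment over 18 tests, so none could pass. Rps4l is annotated as a pseudogene, and its pair was not used.

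**Figure D5:**
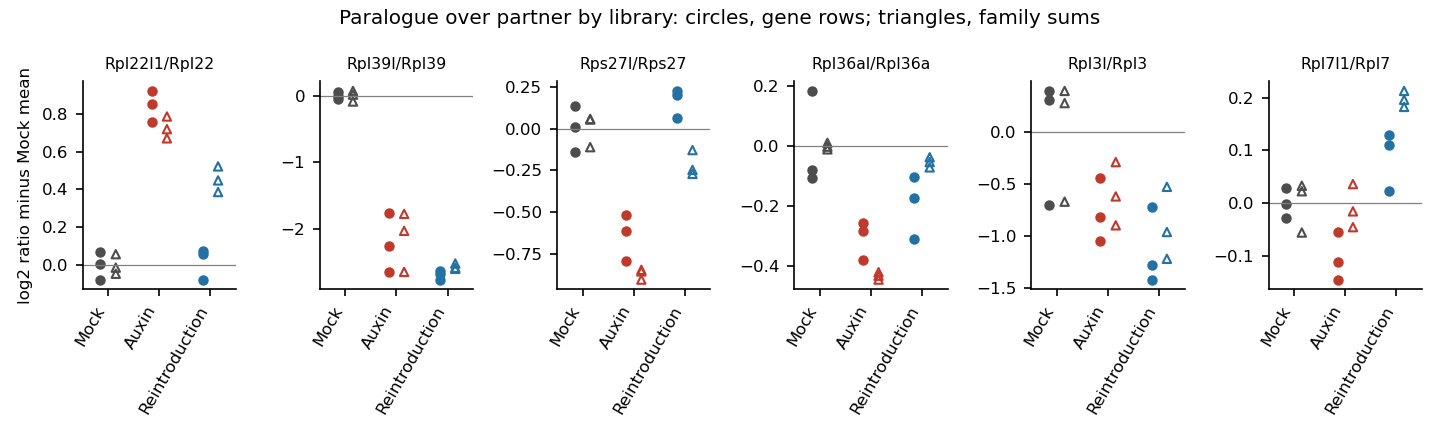
Log2 ratio of CPM of a paralogue to its partner in each library, less the Mock mean (y axis, a separate scale for each pair), by group (x axis). Circles are gene rows and open triangles family sums. Rpl22l1 over Rpl22 is 0.84 higher in Auxin than in Mock and Rpl39l over Rpl39 is 2.22 lower.

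Genes that make and serve the ribosome were counted from lists, to be read against the background of 34.8% lower and 38.4% higher in Auxin against Mock and 25.5% each way after washout. Of the 48 genes for ribosomal RNA processing and subunit assembly, 45 were lower and 1 higher in Auxin than in Mock (median -0.74), and 35 were higher and 2 lower in Reintroduction than in Auxin (median 0.38). Their medians with the trends removed were -0.79 and 0.37. Bop1, a factor of large-subunit assembly, averaged 206 CPM (SD 10.9, n = 3) in the Mock libraries, 63.1 CPM (SD 4.03) under Auxin and 118 CPM (SD 1.55) after washout, and was called in each comparison. Lyar, a nucleolar growth regulator, fell by 1.34 in Auxin against Mock, and Rsl1d1 rose by 0.65 after washout. Of 12 tested genes of RNA polymerase I and its factors, 9 were lower and 0 higher in Auxin, among them Polr1e, which fell by 1.51, and Rrn3, an initiation factor, which fell by 0.85. After washout 6 were higher and 3 lower. Against Mock, Reintroduction had 39 assembly genes lower and 1 higher, and 9 and 1 of the polymerase list. Of all genes, 33.4% were lower and 34.7% higher in that comparison. The members' medians in Auxin against Mock and in Reintroduction against Auxin were -0.34 and -0.07 as counted, and -0.03 and -0.14 with the trends removed.

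Of the 24 translation factors and associated genes, 17 were lower and 5 higher in Auxin than in Mock. Of all genes, 34.8% were lower and 38.4% higher there. After washout 9 of the 24 were higher and 5 lower, against 25.5% of all genes each way. Eef1d, an exchange factor for elongation, fell by 1.57 and Eif3l by 1.09 in Auxin. Eef2, which moves the ribosome along the mRNA, fell by 0.66 after washout and Eif4g1 rose by 0.54. Fau encodes a small-subunit protein as a fusion with a ubiquitin-like domain and carries no Rpl or Rps symbol. It fell by 0.84 in Auxin against Mock and stood at 0.00 after washout, where it was not called. Of 14 regulators of growth and translation, 4 were higher and 4 lower in Auxin, against 38.4% and 34.8% of all genes. With the trends removed 2 were higher and 10 lower, against 42.2% and 32.6% of all genes. The median exon length of this list was 6374.5 bp, and the part of length in this shift was not tested. Of the mitochondrial ribosomal protein genes 74 of 77 were lower in Auxin and 38 higher after washout, and of the proteasome genes 36 of 38 and 28. Myc, a transcription factor known to drive ribosomal protein genes, averaged 67.2 CPM (SD 4.65, n = 3) in the Mock libraries, 6.87 CPM (SD 0.461) under Auxin and 25.5 CPM (SD 2.39) after washout. It fell by 3.29 and then rose by 1.89. Mycn fell by 0.51 and then rose by 0.73.

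The starts of the genes were read from RefSeq promoters (GRCm38.p6), which held 65 of the 85 members. Windows of 30 bases, with 15 before the start base, show 2 members that begin with a C followed by at least 4 pyrimidines, the mark of a terminal oligopyrimidine mRNA (in capitals), and 2 that do not at this start.
Rps6, chr4:86857353-86857382, minus strand: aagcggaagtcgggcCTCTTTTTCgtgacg
Rpl38, chr11:114668565-114668594, plus strand: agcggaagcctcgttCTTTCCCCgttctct
Rpl37a, chr1:72711245-72711274, plus strand: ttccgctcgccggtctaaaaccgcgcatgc
Rpl22l1, chr3:28805493-28805522, plus strand: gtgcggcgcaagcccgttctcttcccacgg

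Such a start was found in 14 of the 65 members (21.5%) and in 2.96% of 26960 other genes. Within 5 bases of the annotated start the shares were 46.2% and 21.1%. The motif CCGGAA stood on either strand, from 250 bases before to 50 after the start, in 55.4% of members and 16.6% of other genes, AAGATGGC in 9.23% and 3.18%, and CACGTG in 9.23% and 8.09%. The 14 members with the pyrimidine start had median log2 fold changes of -0.31, -0.16 and -0.52 in the 3 comparisons in the order given above. The 51 other members in the table had -0.37, -0.06 and -0.45. These are descriptions, and the difference was not tested.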

How the data were processed

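The deposited files hold raw read counts per gene, made by the authors with featureCounts 2.0.6 over exons of an mm10 annotation, without strand and without counting pairs once, per the file headers. The submitters' processing notes also name Trim Galore 0.6.10, FastQC 0.12.1, Bowtie2 2.5.3 and SAMtools 1.20. Which tool aligned the reads, and how reads matching several places were treated, is not given in the sources used here. Members were found by symbol (48058 of 48440 genes had one). Copies were found with BLAST+ 2.17.0 from GENCODE transcripts (at least 80% identity over 50% of a coding sequence). Counts were TMM-scaled and fitted in edgeR 4.0.16 (R 4.3.3; filterByExpr, 20838 genes; 20180 with copies merged) over all 9 libraries with group as the only term. P-values were Benjamini-Hochberg adjusted over all genes, and genes were called under 0.05. The common biological coefficient of variation was 9.15%. The scripts were tested on simulated data. Some alternatives used DESeq2 1.42.0. Members and lists were chosen with earlier results of these data known. The text names, per comparison, the 5 largest rises and falls among called members of at least 1 CPM, a set of 10 members and both genes of each paralogue pair, and of the lists Fau, Myc, Mycn and the 2 smallest p-values of each list. One further gene of the rule is not reported here. Genes outside this rule are marked as chosen after their values were seen. This does not hold for the genes printed as sequences, such as Rps12 and Rpl38, which were picked by hand. Family sums, copies alone, and counts by role or with trends removed without Auxin replicate 2 were chosen after seeing the data.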

Additional observations from a re-analysis of the deposited data

How the results depend on the processing

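Changes are relative to TMM scaling. With total counts in place of TMM, the median of all genes went from 0.05 to 0.26 in Auxin against Mock and from 0.03 to 0.16 in Reintroduction against Mock. It gave 32 lower and 5 higher members in the first, 29 lower in Reintroduction against Auxin, a median of -0.32 in Reintroduction against Mock, and 0.20 for Rpl22 in Auxin against Mock.

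With the length trend removed, Auxin against Mock gave 29 lower and 24 higher members (median -0.0595), Reintroduction against Auxin 38 lower, and Reintroduction against Mock 6 higher (median -0.22). With length and GC trends removed, they gave 32 lower and 24 higher (median -0.0301), 36 lower, and 8 higher (median -0.19). Without Auxin replicate 2 as well, the counts were 22 higher, then 29 lower and 14 higher, then 15 higher (median -0.19). Family sums gave 31 lower in Reintroduction against Auxin, 53 with both trends removed, when Auxin against Mock had 31 higher (median -0.00765) and Reintroduction against Mock 12 higher (median -0.19). Family sums without Auxin replicate 2 gave 78 lower and 1 higher, then 13 higher in Reintroduction against Auxin. Requiring a fold change of at least 1.5 as well left 23 lower and 1 higher, then 3 lower and 0 higher, then 28 lower. A filter of 1 CPM in 3 libraries gave 23 lower in Reintroduction against Auxin.

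Over all alternatives, 1792 values of named members kept their direction and their side of the threshold, 124 passed it newly, 84 no longer passed it and 22 changed sign. Most sign changes were in Auxin against Mock. With the length trend, both trends, or both trends in family sums removed, the values were 0.28, 0.25 and 0.17 for Rpl39, 0.14, 0.21 and 0.17 for Rplp1 and 0.16, 0.21 and 0.37 for Rps27. Without Auxin replicate 2 and both trends, Rplp1 stood at 0.24 and Rps27 at 0.21. Rplp0 stood at 0.00474 with both trends removed, and Rpl22l1 at -0.00545 in family sums without Auxin replicate 2. In Reintroduction against Mock, Rplp1 stood at 0.0817 with both trends removed and 0.0919 without Auxin replicate 2 as well, and Rps27 at 0.0281 in family sums with both trends removed.

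Leaving out each library in turn gave 43 to 81 lower and 3 to 4 higher members in Auxin against Mock (median -0.48 to -0.27), 8 to 22 lower and 2 to 17 higher in Reintroduction against Auxin (median -0.17 to 0.0441), and 60 to 83 lower and 0 higher in Reintroduction against Mock (median -0.50 to -0.42). The log2 ratios of the shares ranged from -0.29 to -0.10, from -0.26 to -0.07 and from -0.38 to -0.32. In Reintroduction against Auxin, 19 members were lower and 2 higher without Auxin replicate 1, 22 lower without Auxin replicate 3 and 3 higher without Reintroduction replicate 2.

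No pairing by replicate number was seen: deviations of same-numbered libraries correlated from -0.546 to 0.450, over 0.1 in 2 of 9 pairs. Those of differently numbered libraries correlated from -0.589 to 0.652. Deviations from a mean of 3 libraries depend on each other, so these values cannot exclude a pairing. With the replicate number as a block, 52 lower and 3 higher, 13 lower and 6 higher, and 66 lower and 0 higher members were called. With the block and both trends removed, 32 lower and 25 higher (median -0.0313), 37 lower, and 9 higher (median -0.19) were called, and Rpl39, Rplp0, Rplp1 and Rps27 stood at 0.24, 0.00372, 0.21 and 0.21 in Auxin against Mock and Rplp1 at 0.0812 in Reintroduction against Mock. The cause of these shifts was not tested. Counts are of mates, and reads that fell on copies limit the depth of the member genes.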
